A study of Mus musculus with 16 samples.

Results

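The clustered histone genes are the rows whose symbol begins with Hist1h, Hist2h, Hist3h or Hist4h, and they were chosen by that symbol alone. Of 52636 gene rows, 70 met the rule: 6 for linker histone H1, 20 for H2A, 19 for H2B, 12 for H3 and 13 for H4. In GRCm38, 56 of them lie on chromosome 13 (the Hist1 group), 10 on chromosome 3 (Hist2, within 96219865 to 96270132), 3 on chromosome 11 (Hist3) and 1 on chromosome 6 (Hist4h4). By GENCODE vM21, 67 are protein coding and the other 3 (Hist1h2al, Hist1h2aj and Hist3h2bb-ps) are pseudogenes.

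RNA levels were measured in RAW264.7 cells, a macrophage-like line made from a virus-induced mouse tumour, by 3′ end sequencing of total RNA. All 4 groups received an siRNA at 25 nM with Lipofectamine RNAiMAX for 24 h: control siRNA or Cebpb siRNA, each without an agent or followed by isoproterenol. Isoproterenol activates β-adrenergic receptors, and Cebpb encodes the transcription factor C/EBPβ, whose part in the M2 programme of such cells is the question in the series title. Each group held 4 libraries, replicates 1 and 2 of experiment 1 and replicates 1 and 2 of experiment 2, which the design text calls biological replicates. A single siRNA product was used against Cebpb, so loss of C/EBPβ and any other action of that siRNA cannot be told apart. The labels used here state no dose or duration of isoproterenol.

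Histones H2A, H2B, H3 and H4 form the core around which DNA is wound, and H1 binds where the DNA enters and leaves it. Most clustered copies are transcribed in S phase, when DNA is replicated, and their messages end in a conserved stem-loop bound by SLBP instead of a poly(A) tail. A subset of the copies also carries a poly(A) signal further downstream and gives polyadenylated messages, which have been described in differentiated and non-dividing cells. A 3′ end kit primes on poly(A), so the values below describe polyadenylated or A-rich transcripts of these genes and not the stem-loop ended pool.

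The stem-loop itself is shown for 7 members, 3 whose transcripts were higher with Cebpb siRNA, 3 lower and 1, Hist1h1c, that was not called without isoproterenol, since it is the end that the assay does not read. The stem-loop was searched for by its consensus in the annotated transcript with the longest stretch after the stop codon (GENCODE vM21, GRCm38). Capitals mark its 16 bases, whose coordinates and strand are given, with 5 transcript bases on each side.
Hist1h4i (chr13:22040966-22040981, minus strand): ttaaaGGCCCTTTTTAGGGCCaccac
Hist3h2a (chr11:58955172-58955187, plus strand): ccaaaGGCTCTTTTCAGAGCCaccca
Hist2h3c2 (chr3:96238485-96238500, minus strand): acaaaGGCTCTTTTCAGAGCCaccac
Hist1h1e (chr13:23621782-23621797, minus strand): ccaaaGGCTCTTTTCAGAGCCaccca
Hist2h2ac (chr3:96220418-96220433, minus strand): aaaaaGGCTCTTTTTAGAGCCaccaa
Hist1h4d (chr13:23581950-23581965, plus strand): ccaaaGGCCCTTTTCAGGGCCactac
Hist1h1c (chr13:23739512-23739527, plus strand): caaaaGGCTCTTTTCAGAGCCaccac

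Hist3h2a and Hist1h1e carry the same 26 bases, although their levels moved in opposite directions. Over the set, 45 of 67 coding members had a stem-loop in the annotated transcript. The form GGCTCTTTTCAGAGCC occurred in 25 members and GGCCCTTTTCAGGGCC in 7. In 17 members fewer than 100 bases were annotated after the stop codon and the stem-loop was not found, and in 5 it was not found in 100 bases or more.

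Values are reads per 10⁶ sequenced reads (RPM), with levels of 1 RPM or less listed as 0 in the files, which is 9.42 to 25.2 reads depending on the library. In total 37 members were listed at 0 in all 16 libraries and 33 above 0 in at least 1. The 27 members above the common floor in at least 4 libraries were tested, 15 of them above it in all 16. Listed but not tested were Hist1h2af, Hist1h2ak and Hist1h3g (1 library each), Hist2h2bb (2 control siRNA libraries, 1.21 and 1.14 RPM), Hist1h2bh (3 Cebpb siRNA + isoproterenol libraries) and Hist1h4j (1 Cebpb siRNA and 3 Cebpb siRNA + isoproterenol libraries, 1.02 to 1.17 RPM).

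Copies share sequence, and reads that map to several places, 19.4 to 22.3% of each library, form an entry of their own in the files outside the gene rows. In the 35 coding members at 0 everywhere, a median of 67.1% of the 50-base stretches of the transcript occurred in another member as well, and in 22 of them over 50% did. The median was 29.1% in the 32 coding members that were listed, with 8 of 32 over 50%. The members at 0 also had short annotated ends, with a median of 77 bases after the stop codon against 288 bases. A 0 is thus no measure of the stem-loop message, and the part of shared sequence in the zeros was not tested.

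Libraries held 9.42 to 25.2 M reads, of which 5.81 to 15.9 M lay on genes. Cebpb, the targeted gene, went from 76.1 ± 11.2 to 22.9 ± 8.83 RPM without isoproterenol and from 92.1 ± 10.4 to 26.4 ± 2.04 RPM with it (SD, n = 4), a log2 fold change of −1.73 ± 0.19 (SE) in both cases (limma adjusted p = 4.02e-07 and 3.82e-07). All 10 macrophage markers were above the floor in every library, with summed levels of 1954 to 3134 RPM. With Cebpb siRNA 7 rose and 2 fell, where 30.9% and 30.4% of all tested genes did. In the isoproterenol arms 6 rose and 3 fell, where 31.6% and 30.3% of all tested genes did. All markers of B cells (4), T and NK cells (5), epithelial cells (5) and fibroblasts (6) were at 0 throughout, as were 5 of 6 neutrophil markers. The sixth, S100a8, was at 2.28 to 3.48 RPM with control siRNA and at 0 to 1.05 RPM with Cebpb siRNA. With isoproterenol it was at 4.44 to 5.84 RPM and at 0 RPM. The control siRNA arms alone brought S100a8 past the filter, so this difference from the floor is given with no test. The share of unmapped reads also moved with the siRNA, at 5.14 to 5.94% with control siRNA and 6.32 to 7.61% with Cebpb siRNA, and at 5.07 to 5.81% and 5.90 to 7.36% with isoproterenol. Multimapping reads averaged 21.9 ± 0.278% and 21.0 ± 0.595%, and 21.5 ± 0.261% and 20.4 ± 0.763% with isoproterenol (SD, n = 4). The part of either share in the siRNA differences below was not tested.

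Cebpb siRNA split the histone genes: linker H1 genes and several core genes were lower, while a few core genes, Hist1h4i, Hist1h2bc, Hist3h2a and Hist2h2be among them, were higher. Without isoproterenol 23 of 27 tested members passed the test, 7 higher and 16 lower, where 61.3% of all 11060 tested genes passed, 30.9% higher and 30.4% lower. That even background depends on the scaling: with values as deposited 2726 genes were higher and 3917 lower (7 and 17 members), against 3415 and 3367 when scaled. The median log2 fold change was −0.70 over the 27 members and 0.01 over all tested genes. The 2 groups of libraries did not overlap for 6 members that were higher and 14 that were lower, where this held for 17.6% and 28.0% of all tested genes in each direction.

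With isoproterenol in both arms, 21 of 27 members passed, 8 higher and 13 lower, against 62.0% of all genes, 31.6% higher and 30.3% lower. The groups did not overlap for 7 members that were higher and 11 that were lower (20.4% and 27.5% of all genes), and the median was −0.39 over the members and 0.02 over all genes. The calls in both arms covered 6 higher and 13 lower members, and no member was called in opposite directions. Experiment by experiment, 22 of 22 calls without isoproterenol that could be fitted in both experiments had the same sign in each, and 21 of 21 with it. The calls came from both experiments together, so this agreement was largely set by their choice and is no separate support. Sizes could differ, as for Hist1h2bg without isoproterenol (log2 −1.29 in experiment 1 and −0.14 in experiment 2).

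Some members had to differ once they were tested, because they reached 4 libraries through 1 siRNA arm alone. Of 8 control and 8 Cebpb siRNA libraries, Hist2h3c2 was listed in 1 and 8, Hist1h4k in 0 and 7, Hist1h4h in 0 and 6, Hist1h2ab in 8 and 2, Hist1h2bk in 8 and 3, Hist1h3c in 5 and 0 and Hist1h2bp in 4 and 0. These 7 gave 6 of the 23 calls without isoproterenol and 4 of the 21 with it, and the other 20 members gave 5 higher and 12 lower, and 6 higher and 11 lower. The counts over the 27, and those by histone type below, are therefore a description, to be read against the shares over all genes. Among the 15 members above the floor in all 16 libraries, 4 were higher, 8 lower and 3 not past the test without isoproterenol, and 5, 8 and 2 with it. The shares over all genes were taken with the filter of 4 libraries. They are therefore no like measure for these 15 or for the 20 above. In bulk RNA, fewer cells making a transcript and less of it per cell cannot be told apart.

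**Figure D1:**
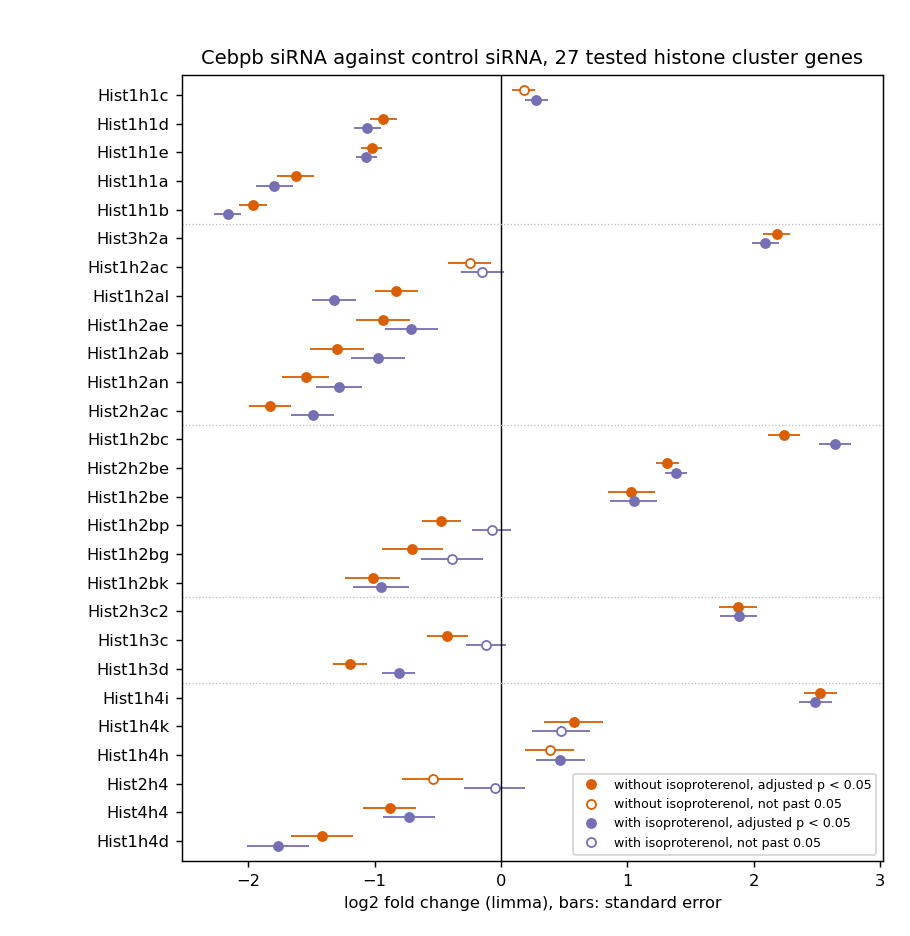
Points are limma log2 fold changes of Cebpb siRNA against control siRNA for the 27 tested members, ordered by histone type, without (orange) and with isoproterenol (purple), bars are standard errors and filled points passed adjusted p = 0.05. Hist1h1a, Hist1h1b, Hist1h1d and Hist1h1e lie left of 0 in both, and Hist1h4i, Hist1h2bc and Hist3h2a lie above 2 in both. The point of Hist2h3c2 is a difference from the floor and not a fold change. Hist1h2ab, Hist1h2bk, Hist1h2bp, Hist1h3c, Hist1h4h, Hist1h4k and Hist2h3c2 passed the filter through 1 siRNA arm alone. Their direction was set by it, so their filled points are no test.

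Of the 5 tested H1 genes, 4 fell in both comparisons (median −1.02 without and −1.07 with isoproterenol). Over all tested genes 30.4% and 30.3% fell. The sixth H1 gene, the testis form Hist1h1t, was at 0 everywhere. Hist1h1b encodes H1.5. Its levels, given here and below as replicates 1 and 2 of experiment 1 and then of experiment 2, were 146, 118, 96.3 and 119 RPM with control siRNA and 26.6, 27.9, 32.1 and 28.1 RPM with Cebpb siRNA. With isoproterenol they were 102, 91.4, 88.2 and 73.7 RPM against 17.5, 21.8, 16.1 and 20.3 RPM. Every Cebpb siRNA library lay below every control siRNA library, and the gene fell 3.90-fold (log2 −1.96 ± 0.11 SE, limma adjusted p = 1.04e-12) and 4.48-fold (log2 −2.16 ± 0.11, adjusted p = 1.98e-13).

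Hist1h1e, which encodes H1.4, stood at 161, 176, 124 and 119 RPM with control siRNA and at 69.5, 69.2, 64.8 and 62.1 RPM with Cebpb siRNA. In the isoproterenol arms it stood at 135, 145, 113 and 100.1 RPM and at 54.4, 63.4, 48.6 and 56.7 RPM. The groups again did not overlap, and experiment 2 was lower than experiment 1 in the control arms. The fall was log2 −1.02 ± 0.08 (limma adjusted p = 5.39e-10) and −1.07 ± 0.08 (adjusted p = 2.37e-10). The annotated 3′ part of Hist1h1e lies on the same strand as exons of Hist1h2be and Gm11398, so reads there could have been given to more than 1 gene or to none.

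Hist1h1d, which encodes H1.3, measured 48.3, 50.9, 34.6 and 40.2 RPM with control siRNA and 24.5, 20.6, 23.7 and 17.1 RPM with Cebpb siRNA. After isoproterenol it measured 41.1, 39.6, 32.9 and 25.5 RPM against 15.8, 18.8, 13.8 and 14.7 RPM. No Cebpb siRNA library reached the lowest control siRNA library of its arm. The log2 fold change was −0.93 ± 0.11 (limma adjusted p = 1.79e-07) and −1.06 ± 0.11 (adjusted p = 2.36e-08).

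Hist1h1a, which encodes H1.1, was present at 24.7, 22.3, 19 and 20.6 RPM with control siRNA and at 5.08, 6.79, 7.39 and 7.32 RPM with Cebpb siRNA. The isoproterenol arms had 16.5, 17.3, 17.6 and 13.8 RPM and 3.28, 4.70, 4.39 and 5.87 RPM. The fall of 3.09-fold and 3.47-fold (log2 −1.63 ± 0.15 and −1.80 ± 0.15, limma adjusted p = 3.32e-09 and 6.24e-10) exceeded the spread between libraries in each arm.

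Hist1h1c, which encodes H1.2, was called lower in neither comparison. It had 63.5, 64.0, 32.9 and 37.7 RPM with control siRNA and 55.9, 57.4, 45.7 and 44.9 RPM with Cebpb siRNA. With isoproterenol the values were 59.6, 56.3, 40.4 and 36.9 RPM and 63.3, 67.7, 47.0 and 44.9 RPM. The experiments separated more than the siRNA groups did: the groups overlapped, and experiment 2 differed from experiment 1 by log2 −0.57 ± 0.06 (limma adjusted p = 6.3e-07). Cebpb siRNA gave 0.18 ± 0.09 without isoproterenol (adjusted p = 0.0864; −0.13 in experiment 1 and 0.48 in experiment 2) and 0.28 ± 0.09 with it (adjusted p = 0.00954; 0.22 and 0.32), a call that was lost without a term for the experiment.

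**Figure D2:**
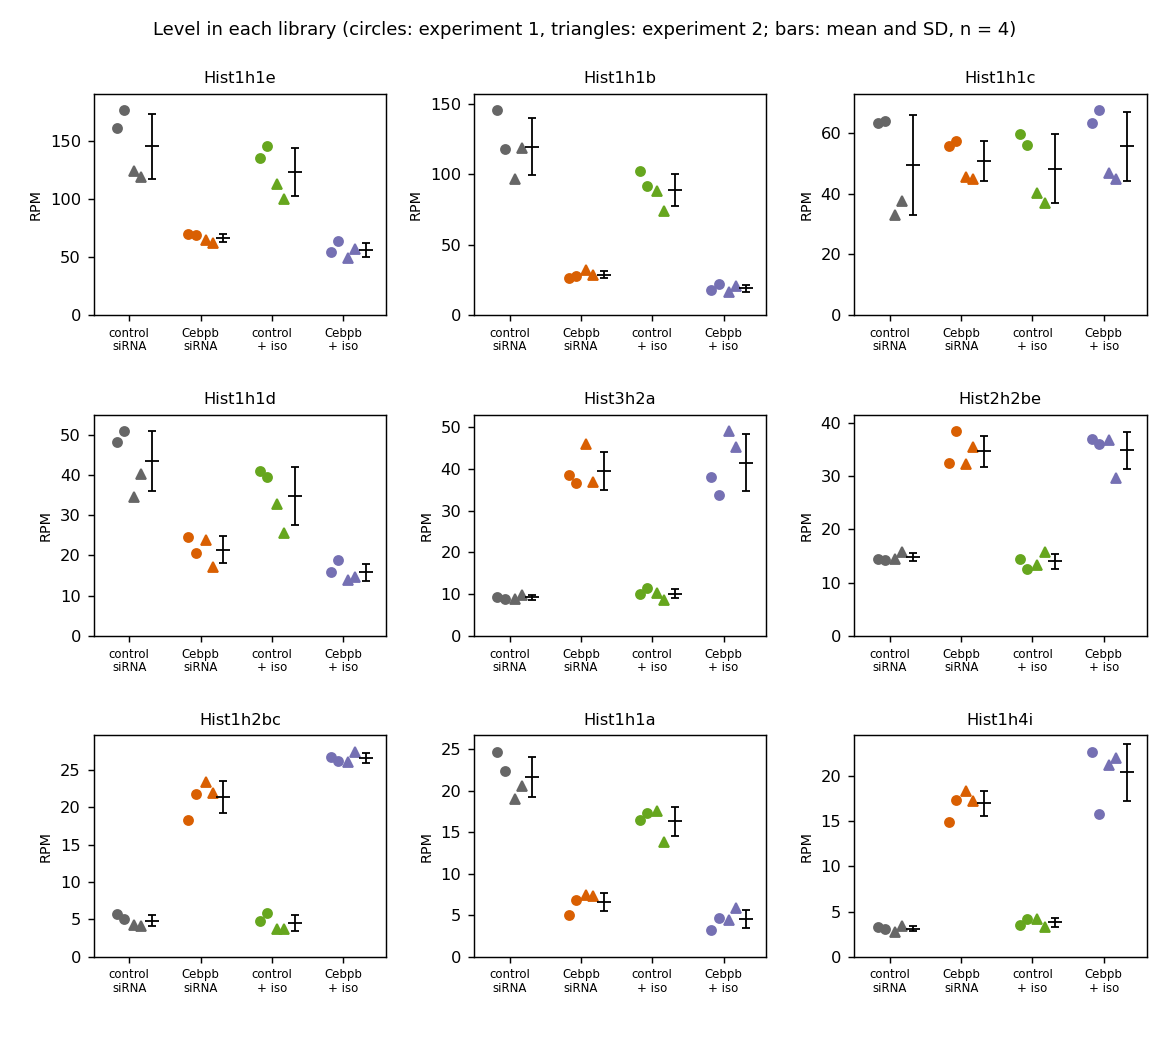
Each panel gives the RPM of 1 member with a mean of at least 10 RPM in each of the 16 libraries (circles experiment 1, triangles experiment 2), with the group mean and SD (n = 4) beside the points and an axis from 0. Hist1h1e, Hist1h1b, Hist1h1d and Hist1h1a are lower in both Cebpb siRNA groups, Hist3h2a, Hist2h2be, Hist1h2bc and Hist1h4i are higher, and Hist1h1c separates by experiment.

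H2A is the core histone that pairs with H2B, and 5 of 7 tested H2A members were lower and 1 higher in both comparisons. Over all tested genes 30.4% were lower and 30.9% higher without isoproterenol, and 30.3% and 31.6% with it. The 5 include the pseudogene Hist1h2al, and Hist1h2ab, which the control siRNA arms alone brought past the filter. The 1 that rose was Hist3h2a, the H2A gene of the small chromosome 11 group. It went from 9.29, 8.74, 8.88 and 9.83 RPM to 38.4, 36.5, 46.0 and 36.8 RPM without isoproterenol, and from 10.0, 11.4, 10.3 and 8.70 RPM to 37.9, 33.8, 49.0 and 45.1 RPM with it. The groups were far apart, at 4.54-fold and 4.27-fold (log2 2.18 ± 0.11 and 2.09 ± 0.11, limma adjusted p = 1.8e-13 and 2.56e-13). Its exons share a strand with those of Trim17, so the gene of origin of these reads is uncertain.

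Hist2h2ac had the largest fall of the 7 tested H2A genes in both comparisons. Its levels were 13.7, 11.5, 8.54 and 12.2 RPM with control siRNA and 3.20, 3.24, 3.85 and 2.02 RPM with Cebpb siRNA, and 9.35, 8.73, 9.90 and 6.57 RPM against 2.99, 3.30, 2.76 and 2.59 RPM with isoproterenol. The groups did not overlap (log2 −1.83 ± 0.17 and −1.49 ± 0.17, limma adjusted p = 3.94e-09 and 8.58e-08).

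Calls for 3 more H2A genes were for copies near the floor, where differences are understated. Hist1h2an (−1.55 and −1.28), Hist1h2ab (−1.30 and −0.97) and Hist1h2ae (−0.93 and −0.71, as log2 fold changes without and with isoproterenol) were listed in all 8 control siRNA libraries and at 0 in 2, 6 and 2 of the 8 Cebpb siRNA libraries. Hist1h2an shares 85.8% of its 50-base stretches with other members, so its reads are uncertain. Hist1h2al, an annotated processed pseudogene away from the cluster (chromosome 13, 51202727 to 51203065), had 8.19, 6.28, 6.55 and 7.77 RPM against 4.42, 3.24, 3.69 and 3.93 RPM. With isoproterenol it had 6.78, 7.82, 5.41 and 4.81 RPM against 2.12, 1.90, 2.85 and 2.54 RPM. It was lower in every Cebpb siRNA library (−0.83 ± 0.17 and −1.32 ± 0.17, limma adjusted p = 2.56e-04 and 6.94e-07). Hist1h2ac, at 2.07 to 4.06 RPM over the 16 libraries, did not pass (−0.25 ± 0.17 and −0.15 ± 0.17, adjusted p = 0.215 and 0.469).

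Of 6 tested H2B genes, 3 were called higher and 3 lower without isoproterenol, and 3 higher and 1 lower with it. The filter set the direction of Hist1h2bk and Hist1h2bp, 2 of the 3 lower ones. Hist1h2bk was also the 1 lower with isoproterenol. The shares over all tested genes were 30.9% higher and 30.4% lower without isoproterenol, and 31.6% and 30.3% with it. Hist1h2bc rose from 5.72, 5.05, 4.32 and 4.15 RPM to 18.4, 21.8, 23.4 and 22.0 RPM. In the isoproterenol arms it rose from 4.85, 5.88, 3.70 and 3.74 RPM to 26.7, 26.2, 26 and 27.4 RPM. The 4.73-fold and 6.25-fold rise (log2 2.24 ± 0.13 and 2.64 ± 0.13, limma adjusted p = 1.26e-12 and 8.5e-14) left no overlap between the groups. Its transcript with the longest end has 2 exons and 742 bases after the stop codon, in which the stem-loop was not found.

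Hist2h2be rose from 14.4, 14.2, 14.4 and 15.8 RPM to 32.5, 38.4, 32.2 and 35.3 RPM without isoproterenol, and from 14.3, 12.5, 13.4 and 15.6 RPM to 37.0, 36.0, 36.7 and 29.7 RPM with it. The lowest Cebpb siRNA library of each arm was above the highest control siRNA library (log2 1.32 ± 0.09 and 1.39 ± 0.09, limma adjusted p = 2.52e-11 and 1.01e-11). Hist1h2be (1.03 ± 0.19 and 1.05 ± 0.19) also rose, at 0 to 3.57 RPM. Hist1h2bg passed as lower without isoproterenol (−0.70, limma adjusted p = 0.0157). Hist1h2bk (−1.02 and −0.95) was lower in both, and Hist1h2bp (−0.47) without isoproterenol. The control siRNA arms alone brought these 2 past the filter, so their direction was set by it and they are given with no test. With isoproterenol Hist1h2bg and Hist1h2bp were at −0.39 and −0.07. For Hist1h2bg the change between the comparisons did not pass (adjusted p = 0.95). All 3 were below 4 RPM in every library, and the Hist1h2bg call was lost without control siRNA replicate 2 of experiment 1 and without either Cebpb siRNA library of experiment 1.

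H3 genes were seldom above the floor, and 3 of 12 were tested. Hist1h3d fell from 12.2, 12.9, 12.4 and 13.7 RPM to 5.18, 5.79, 6.32 and 4.03 RPM without isoproterenol (log2 −1.19 ± 0.13, limma adjusted p = 8.03e-08). With isoproterenol it fell from 12, 14, 13.5 and 10.2 RPM to 5.47, 6.85, 7.01 and 7.78 RPM (−0.81 ± 0.13, adjusted p = 1.67e-05), again with no overlap. Hist2h3c2 stood at 0 in the 4 control siRNA libraries and in 3 of 4 given isoproterenol, the other being at 1.20 RPM. With Cebpb siRNA it was at 4.24, 3.44, 3.65 and 3.82 RPM, and at 3.43, 3.30, 4.39 and 5.13 RPM with both. Against the common floor the log2 difference was 1.88 ± 0.15 in each comparison. It is not a fold change of the gene and, since the Cebpb siRNA arms alone brought the gene past the filter, it is given with no test. Hist2h3c2 shares 63.5% of its 50-base stretches with other members, but 0% of those in its last 300 bases. Hist1h3c, listed in 3 control siRNA libraries and in 2 given isoproterenol, gave −0.42 ± 0.16 and −0.12 ± 0.16. It was called without isoproterenol, a call that was lost when any experiment 1 library of either siRNA group was left out. The control siRNA arms alone brought Hist1h3c past the filter, so its direction was set by it.

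Of 6 tested H4 genes, 2 were called higher and 2 lower in each comparison, close to the 30.9% and 30.4% of all genes (31.6% and 30.3% with isoproterenol), and 1 of the 2 higher in each was at 0 in every control siRNA library. Hist1h4i rose from 3.25, 3.12, 2.73 and 3.40 RPM to 15, 17.4, 18.3 and 17.3 RPM without isoproterenol. With it the levels were 3.51, 4.22, 4.21 and 3.26 RPM against 22.7, 15.8, 21.3 and 22.0 RPM. The rise of 5.77-fold and 5.61-fold (log2 2.53 ± 0.13 and 2.49 ± 0.13, limma adjusted p = 3.16e-13 and 3.38e-13) was the largest among the 27 members without isoproterenol. Hist1h4d fell, from 10.6, 19.4, 14.1 and 9.25 RPM to 4.28, 3.60, 5.04 and 5.41 RPM without isoproterenol and from 13.6, 13.6, 9.20 and 9.45 RPM to 3.72, 1.97, 4.02 and 3.37 RPM with it. Its groups did not overlap (log2 −1.42 ± 0.25 and −1.77 ± 0.25, limma adjusted p = 5.62e-05 and 3.89e-06). Hist4h4, the lone chromosome 6 copy, fell by 0.88 ± 0.21 and 0.73 ± 0.21 (limma adjusted p = 9.13e-04 and 0.0044). It was near the floor, at 0 to 4.065 RPM over the 16 libraries. Fitted alone, experiment 1 did not pass without isoproterenol (limma adjusted p = 0.083), nor did experiment 2 with it (limma adjusted p = 0.109). Those at 0 in every control siRNA library were Hist1h4k (0.58 and 0.48) and Hist1h4h (0.39 and 0.47), the first called without and the second with isoproterenol. The Cebpb siRNA arms alone brought both past the filter, so their direction was set by it. The Hist1h4k call was lost when any of 6 libraries was left out (all 4 with control siRNA, and Cebpb siRNA replicates 1 of experiment 1 and 2 of experiment 2). That of Hist1h4h was lost for any of 7 (all given isoproterenol but Cebpb siRNA replicate 2 of experiment 1). Hist2h4 did not pass (−0.54 ± 0.24 and −0.05 ± 0.24).

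As a description over rows, the summed level of the H1 members was 379.5 ± 68.1 RPM with control siRNA and 174.1 ± 10.5 RPM with Cebpb siRNA, and 311.4 ± 49.7 and 150.8 ± 19.7 RPM with isoproterenol (SD, n = 4). The H2B sum went the other way, 27.2 ± 2.30 to 60.1 ± 4.58 RPM and 24.2 ± 3.05 to 66.2 ± 2.33 RPM. So did the H2A sum, 40.07 ± 5.82 to 50.94 ± 5.52 RPM and 36.36 ± 6.05 to 51.56 ± 6.31 RPM. The H4 sum also rose, 21.43 ± 3.76 to 26.58 ± 1.59 RPM and 20.75 ± 2.23 to 31.17 ± 4.97 RPM. For these 2 types the libraries overlapped without isoproterenol. Within the H2A sum the mean of Hist3h2a went from 9.18 to 39.4 RPM, and from 10.1 to 41.5 RPM with isoproterenol. Of 7 tested H2A members 5 were lower. Within the H4 sum the mean of Hist1h4i went from 3.12 to 17.0 RPM, and from 3.80 to 20.4 RPM with isoproterenol. Of 6 tested H4 members 2 were lower in each comparison. The H3 sum fell, 14.01 ± 1.14 to 9.38 ± 0.44 RPM and 13.39 ± 2.37 to 10.84 ± 1.72 RPM. With isoproterenol its libraries overlapped, at 10.25 to 15.96 RPM with control siRNA and 8.90 to 12.91 RPM with Cebpb siRNA. The sum over all 70 members was 482 ± 75.6 and 321 ± 13.3 RPM without isoproterenol and 406 ± 60.4 and 310.5 ± 9.75 RPM with it.

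At 2 places an H2A and an H2B gene start back to back, a common layout of these clusters, and both were above the floor in all 16 libraries. In the Hist2 pair the genes moved in opposite directions, and in the Hist1 pair Hist1h2bc rose while Hist1h2ac did not pass the test. At 1 of them 238 bases separate the annotated starts of Hist2h2ac and Hist2h2be, and at the other 250 bases separate those of Hist1h2ac and Hist1h2bc. The stretch between each pair is shown because the ratio of the genes on its flanks differed between the siRNA groups. For the Hist1 pair it holds 239 of the 250 bases, without those next to the Hist1h2ac start. It is read on the minus strand, towards the H2A gene, from RefSeq promoters on GRCm38.p6, and capitals mark CCAAT, ATTTGCAT and TATAAA on either strand.
Hist2h2be to Hist2h2ac (chr3:96220881-96221118): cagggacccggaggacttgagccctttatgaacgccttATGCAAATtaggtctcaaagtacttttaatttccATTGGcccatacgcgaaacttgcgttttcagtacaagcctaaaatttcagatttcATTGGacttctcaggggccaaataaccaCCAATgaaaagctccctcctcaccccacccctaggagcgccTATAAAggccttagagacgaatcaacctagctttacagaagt
Hist1h2bc to Hist1h2ac (chr13:23683960-23684198): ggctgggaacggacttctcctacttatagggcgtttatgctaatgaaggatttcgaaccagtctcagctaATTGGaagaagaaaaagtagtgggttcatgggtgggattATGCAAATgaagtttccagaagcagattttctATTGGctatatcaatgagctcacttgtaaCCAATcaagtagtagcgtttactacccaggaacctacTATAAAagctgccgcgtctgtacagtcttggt

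Each stretch held 3 matches to CCAAT, the box bound by NF-Y, 1 to the octamer ATTTGCAT, bound by OCT1, and 1 to TATAAA, so these letters did not set the pairs apart from each other. On the log2 scale the ratio of Hist2h2be to Hist2h2ac was 0.08, 0.31, 0.75 and 0.38 with control siRNA and 3.34, 3.57, 3.06 and 4.13 with Cebpb siRNA. With isoproterenol it was 0.62, 0.52, 0.43 and 1.25 against 3.63, 3.45, 3.74 and 3.52. The ratio was higher in every Cebpb siRNA library, by 3.15 and 2.88 in the mean. For Hist1h2bc over Hist1h2ac the ratio was 0.94, 0.60, 0.71 and 0.66 against 3.12, 2.89, 3.50 and 3.37, and 1.19, 0.54, 0.30 and 0.15 against 3.35, 3.40, 3.21 and 3.38 with isoproterenol. Its shift was 2.49 and 2.79. The ratios restate the values of genes tested above, so they are a description with no test of their own.

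**Figure D3:**
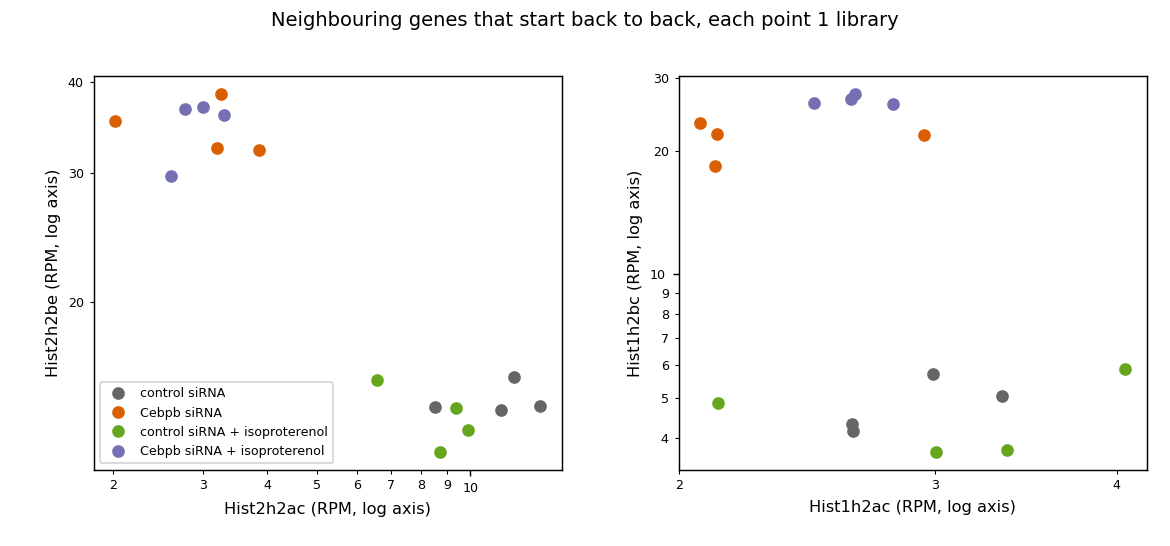
Each point is 1 library, with the RPM of the H2A gene on the horizontal axis and of the H2B gene that starts next to it on the vertical axis, both on log scales. Libraries with Cebpb siRNA lie above those with control siRNA in both panels, and to their left in the Hist2 pair alone, where Hist2h2ac fell (log2 −1.83 and −1.49).

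In all 15 pairs of members start back to back. Of the others, both Hist1h2ae and Hist1h2bg, and both Hist1h2an and Hist1h2bp, were lower without isoproterenol, and in 4 pairs a single member was listed. Promoters from 250 bases before to 50 after the start were held by the RefSeq table for 62 members and, in all, for 32851 starts. CCAAT on either strand was present in 53 of 62 members (85.5%) and in 37.4% of all promoters, ATTTGCAT in 14 (22.6%) and 1.74%, and TATAAA in 35 (56.5%) and 13.6%. CCAAT was found in all H1, H2A, H2B and H3 promoters and in 3 of 12 H4 promoters, and ATTTGCAT in 7 of 18 H2A and 7 of 16 H2B promoters and in no other type. Of 5 higher members with a promoter CCAAT occurred in 3, ATTTGCAT in 2 and TATAAA in 2, and of 15 lower members in 14, 5 and 13. Hist2h3c2 and Hist1h4k of the 5, and Hist1h2ab, Hist1h2bk, Hist1h2bp and Hist1h3c of the 15, passed the filter through 1 siRNA arm alone. Their direction was set by it, so these counts are a description. The 5 higher members leave out Hist1h2bc and Hist2h2be, which were higher but not among the 62. The stretches beside their starts, shown above, hold all of these motifs. The 2 without CCAAT, Hist1h4i and Hist1h4k, were H4 genes and the only ones of the 5 with TATAAA. Hist1h2be had 2 windows and was counted as 1 gene. The palindrome TTGCGCAA, a form of the C/EBP site, was in 0 of 62 windows and 0.183% of all. Matches of different motifs overlapped in 0 of the 62.

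The annotated 3′ extent differed between higher and lower members, as a description of few genes. Some of these passed the filter through 1 siRNA arm alone: Hist2h3c2 and Hist1h4k (higher), and Hist1h2ab, Hist1h2bk, Hist1h2bp and Hist1h3c (lower). Of the 7 members higher without isoproterenol, 6 had over 300 bases after the stop codon (median 742), and of the 15 lower coding members 5 had (median 150). Hist1h1d, Hist1h1e, Hist1h3d, Hist1h4d and Hist4h4 were the lower ones with long ends, reaching 4931 bases in Hist1h1d. The stem-loop was found in 4 of the 7 higher members, followed by another 330 to 1861 annotated bases, and in 11 of the 15 lower ones, followed by 11 to 4884 bases. Oligo(dT) can also prime inside A-rich stretches. The highest number of A in any 20 bases was 18 in Hist1h1d, 17 in Hist1h2ac, 14 in Hist1h1b and 12 in Hist1h4i and Hist1h2bc, and its part in the levels was not tested.

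**Figure D4:**
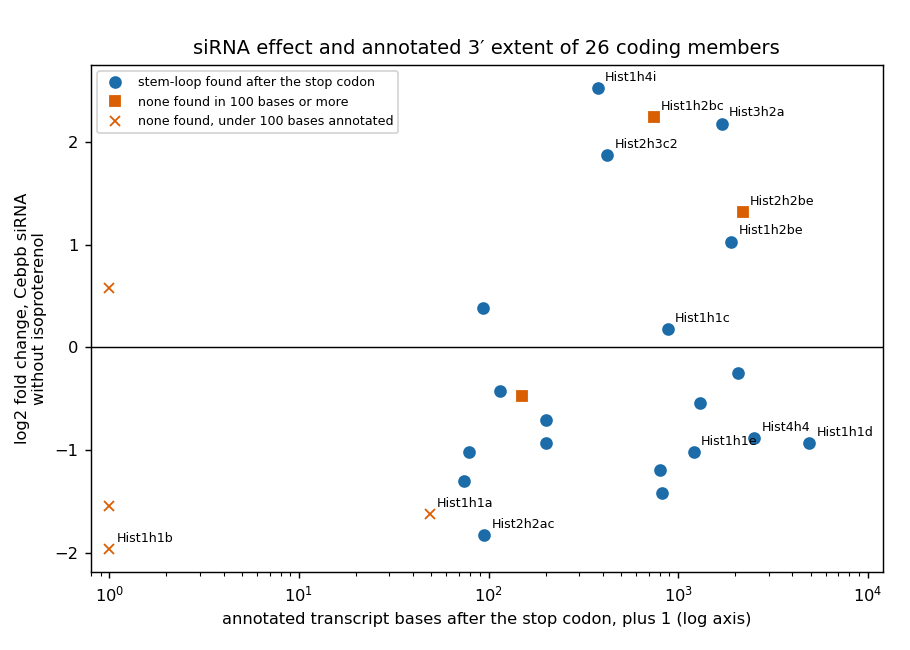
Each point is 1 of 26 tested coding members, placed by the annotated transcript bases after the stop codon plus 1 (log axis) and by its log2 fold change with Cebpb siRNA without isoproterenol, with the marker showing whether the stem-loop was found. Apart from Hist1h4k, with no annotated end, the members called higher sit at 376 bases or more, and members that fell occur along the whole axis.

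Genes that make, carry or replace clustered histones are given from lists, with the median log2 fold change of each. Over all tested genes 30.4% were lower and 30.9% higher without isoproterenol, and 30.3% and 31.6% with it. Of 26 S phase and replication genes, 25 fell and none rose in both comparisons (median −1.31 without and −1.57 with isoproterenol), among them the helicase subunits Mcm3 (−2.74 ± 0.10) and Mcm6 (−1.90 ± 0.07), the licensing factor Cdc6 (−1.98 ± 0.08) and the transcription factor E2f2 (−2.43 ± 0.10). Their summed level was 2218 to 2524 RPM with control siRNA and 700.1 to 913.4 RPM with Cebpb siRNA. This fall accompanied that of the H1 genes as well as the rise of Hist1h4i, Hist1h2bc and Hist3h2a, and its part in either was not tested.

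Of 14 tested genes for histone mRNA 3′ end formation and decay, 10 fell and 1 rose (median −0.46), and 10 fell and 2 rose with isoproterenol (median −0.49), where 30.4% and 30.3% of all genes fell. Slbp, the stem-loop binding protein, which is on the S phase list too, fell by 1.12 ± 0.14 and 0.98 ± 0.14 on the log2 scale (limma adjusted p = 2.73e-07 and 1.53e-06). Casp8ap2, which encodes the processing factor FLASH (−0.77), the cap-binding gene Ncbp1 (−0.69) and the decay helicase Upf1 (−0.66) fell without isoproterenol. Of 18 histone chaperone genes 14 fell and 2 rose (median −0.65; 13 and 2 with isoproterenol, median −0.63), with the S phase chaperones Asf1b (−1.87 ± 0.10) and Chaf1a (−1.52 ± 0.10), the acetyltransferase Hat1 (−1.25) and the centromere chaperone Hjurp (−0.91).

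Variant histones are encoded outside the clusters, most of them by ordinary polyadenylated genes, although H2afx also gives a stem-loop ended message. In both comparisons 5 of 9 tested rose and 3 fell (median 0.20 and 0.36), the latter near the share over all genes, while H2afy2 and H1fx were at 0. H1f0, the linker histone of resting cells, rose by 0.94 ± 0.07 and 0.96 ± 0.07 (limma adjusted p = 1.78e-10 and 1.03e-10), opposite in sign to the 4 clustered H1 genes that fell. H2afj rose (0.50 and 0.49), and H2afz (−0.89 and −0.59) and H3f3b (−0.83 and −0.95) fell.

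Isoproterenol moved far fewer genes. In control siRNA cells 1 of 27 members passed, Hist1h1b, where 1.65% of all tested genes passed, 0.443% as lower (6 members had an unadjusted p under 0.05). Hist1h1b fell by 0.45 ± 0.11 on the log2 scale (limma adjusted p = 0.0326), or 1.37-fold, with overlapping libraries as listed above, and the call was lost when any of 6 of the 8 libraries was left out (all but control siRNA replicate 1 of experiment 2 and control siRNA + isoproterenol replicate 1 of experiment 1). Hist1h1a (−0.44, adjusted p = 0.189), Hist1h1d (−0.36, adjusted p = 0.123) and Hist1h1e (−0.26, adjusted p = 0.152) did not pass. Libraries did not overlap for 1 member that was lower, Hist1h1a, and for 0 that were higher, where this held for 1.83% and 3.80% of all genes.

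In Cebpb siRNA cells 5 of 27 members passed, all lower, against 5.48% of all tested genes, 2.48% as lower. They were Hist1h1b (−0.65 ± 0.11, limma adjusted p = 5.48e-04), Hist1h1d (−0.49 ± 0.11, adjusted p = 0.00909), Hist1h2al (−0.76 ± 0.17, adjusted p = 0.0097), Hist1h1a (−0.61 ± 0.15, adjusted p = 0.0159) and Hist1h1e (−0.31 ± 0.08, adjusted p = 0.0318). The groups did not overlap for Hist1h1b and Hist1h2al, 2 lower members, and for Hist1h2bc, 1 higher member (1.56% lower and 5.27% higher over all genes). All 5 estimates were negative in experiment 1 and in experiment 2, the data that gave the calls, so this is no separate support. Hist1h1a and Hist1h1e no longer passed, leaving 3 members, without Cebpb siRNA replicate 1 of experiment 2 or without Cebpb siRNA + isoproterenol replicate 1 of experiment 1. The Hist1h1e call was also lost without Cebpb siRNA replicate 2 of experiment 2, without Cebpb siRNA + isoproterenol replicates 2 of experiment 1 or 1 of experiment 2, and with values as deposited. Of the 26 S phase genes 12 fell in the same cells and 1 in control siRNA cells. None of the core genes that rose with Cebpb siRNA passed for isoproterenol in either arm; Hist1h2bc gave −0.13 ± 0.13 and 0.27 ± 0.13 (adjusted p = 0.807 and 0.234).

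The difference between the isoproterenol effects was tested directly. No member passed (limma; 1 member, Hist1h2bc, had an unadjusted p under 0.05), where 0.235% of all tested genes, 26 genes, did, 0.118% in each direction (13 higher and 13 lower). For Hist1h1b the difference was −0.20 ± 0.15 (adjusted p = 0.922) and for Hist1h2bc 0.40 ± 0.18 (adjusted p = 0.736). A response of the H1 genes that depends on the siRNA is therefore not shown, nor is an equal one.

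**Figure D5:**
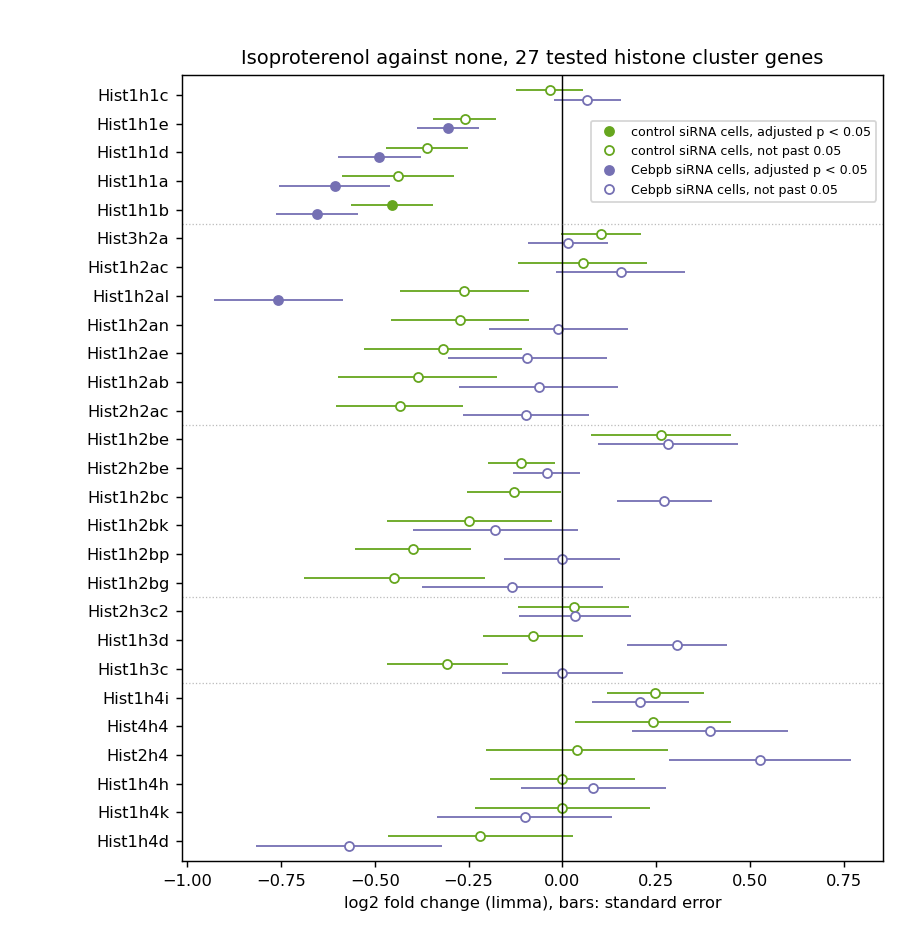
Points are limma log2 fold changes of isoproterenol against none in control siRNA cells (green) and Cebpb siRNA cells (purple) for the 27 tested members, bars are standard errors and filled points passed adjusted p = 0.05. The axis is narrower than that of the siRNA comparison: all estimates lie between −0.76 (Hist1h2al) and 0.53 (Hist2h4), and the H1 genes other than Hist1h1c lie left of 0.

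The experiments, tested as the other term of the fit, also differed for these genes. In experiment 2, 1 member was higher (Hist4h4) and 6 were lower (Hist1h1c, Hist1h1d, Hist1h1e, Hist1h2ab, Hist1h2ae and Hist1h2an), 7 of 27, where 32.9% of all genes passed, 17.4% higher and 15.5% lower. After Hist1h1c the log2 differences of the members above the floor in every library were −0.33 ± 0.08 for Hist1h1d and −0.29 ± 0.06 for Hist1h1e (limma adjusted p = 0.00239 and 6.48e-04). The Hist1h2an and Hist4h4 calls were lost when any of 11 and of 8 of the 16 libraries was left out. Both siRNA arms were run in each experiment, so the siRNA effects above are differences within experiments.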

How the data were processed

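Per the labels' protocols, 16 libraries were made with the QuantSeq 3′ FWD kit of Lexogen. Per the submitters' processing notes, STAR 2.5.3a and the GRCm38 build were used. The counting tool, annotation and strand setting were not given in the sources used here. Files deposited by the authors hold log2 reads per 10⁶ sequenced reads, with 1 or less listed as 0. Multiplied back they gave whole reads (tolerance 0.1) for 100% of listed values. Being log2 values rather than counts, they were tested with limma 3.58.1 (R 4.3.3, trend and robust).

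Scaling used a trimmed mean of the log ratios, leaving out 30% by ratio and 5% by level, and all libraries were raised to a common floor. Genes above that floor in 4 or more libraries (11060) were fitted with group (4 levels) and experiment as terms, and p-values were adjusted over all of them by the Benjamini-Hochberg method at 0.05. The 4 summary entries of each file, for unmapped (5.07 to 7.61% of reads), multimapping, ambiguous (0.823 to 1.02%) and unassigned reads (7.51 to 9.39%), stayed out. Between replicates the chi-square per degree of freedom was 4.92 to 13.3, above counting noise. The fit was tested on simulated data.

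Members, lists and tests were chosen with earlier results of these data known. Every tested member is named. Those with a mean of at least 10 RPM, or called for isoproterenol, are given by library, as are a few other members chosen after their values were seen, and other lists have up to 4 genes by smallest adjusted p. Alternatives covered scaling, floor, pseudocount, filters, experiments, replicate block and leaving out each library. Comparisons in the same siRNA arm or the same isoproterenol arm share libraries.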

Additional observations from a re-analysis of the deposited data

Results flagged for a closer look

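In 77 groups of 4 libraries, 5 held a library far from the other 3 by Dixon's criterion, which chance meets in about 1 in 20 groups. Hist2h2be was at 15.8 RPM in control siRNA replicate 2 of experiment 2, against 14.2 to 14.4 RPM in the others, and at 29.7 RPM in Cebpb siRNA + isoproterenol replicate 2 of experiment 2, against 36.0 to 37.0 RPM. Hist1h2ac was at 2.95 RPM in Cebpb siRNA replicate 2 of experiment 1 (others 2.07 to 2.12 RPM), and Hist1h2bg at 3.12 RPM in control siRNA replicate 2 of experiment 1 (others 2.03 to 2.15 RPM). Hist1h4k was at 2.63 RPM in Cebpb siRNA + isoproterenol replicate 1 of experiment 1 (others 1.14 to 1.36 RPM).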

How the results depend on the processing

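No called member changed direction under any alternative run, but estimates that were not past the test did between the experiments, such as Cebpb siRNA on Hist1h1c without isoproterenol (−0.13 and 0.48) and on Hist2h4 with it (−0.31 and 0.19), and isoproterenol on Hist1h2be in control siRNA cells (0.73 and −0.19). The 23 members called for Cebpb siRNA without isoproterenol, and the 21 with it, stayed within 1.5 times of these counts except when only genes above the floor in all 16 libraries were tested, which leaves 15 members (12 and 13 called). Leaving out 1 library gave 20 to 25 and 20 to 22. For isoproterenol in control siRNA cells the 1 call became 0 without a term for the experiment, with a replicate block, with genes above the floor in at least 1 library and in experiment 2 alone, 5 with only the groups of the contrast, and 0 to 1 with 1 library left out, being lost without control siRNA replicates 1 and 2 of experiment 1 and 2 of experiment 2 and without control siRNA + isoproterenol replicates 2 of experiment 1 and 1 and 2 of experiment 2. The 5 calls in Cebpb siRNA cells became 2 without a term for the experiment, 2 in experiment 1 alone, 1 in experiment 2 alone and 3 to 5 with 1 library left out. The 7 calls between experiments became 3 with the filter on all 16 libraries. Where a setting only removed genes or libraries, its construction accounts for fewer tests or samples, and otherwise the cause was not tested. The interaction needs all 4 groups, so it has no value from fewer.

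Over all genes, isoproterenol in control siRNA cells gave 183 calls, 44 without the experiment term, 114 and 21 in each experiment alone and 526 with only its groups. In Cebpb siRNA cells it gave 606, and 197, 251, 145 and 282. The difference gave 26, and 10, 12 and 2 in those first 3 settings, 17 with log2(value + 1) and 12 with the filter on all libraries. Values as deposited gave 145 higher and 27 lower genes in control siRNA cells (134 and 49 when scaled), 455 and 153 in Cebpb siRNA cells (332 and 274) and 13 and 8 for the difference (13 and 13). For Cebpb siRNA they gave 2726 and 3917 genes without isoproterenol (3415 and 3367) and 2976 and 3761 with it (3500 and 3353), and 7 and 17, and 9 and 13 members. Replicate letters did not pair the samples: correlations of their deviations between groups were −0.19 to 0.23, with 3 of 12 over 0.1. The replicate block gave 23, 21, 0, 5 and 0 called members for Cebpb siRNA without and with isoproterenol, isoproterenol in control and Cebpb siRNA cells, and their difference. The floor of 1 RPM limits what can be seen of the 37 members at 0.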
